A study of Mus musculus with 11 samples.

Results

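The cytochrome P450 family 2 genes were followed through mouse liver development on 2-colour microarrays. Genes were taken by name, as every gene on the array called Cyp2 followed by a subfamily letter and a number. This gave 34 genes on 53 probes, of 27962 gene names on the array. Of the 34 genes, 33 had a probe whose Cy5 sample signal stood well above background on every array of at least 1 stage and were measured. Cyp2c66, with 1 probe, was well above background on 1 array of each stage and was not measured. The measured genes fell into subfamilies 2a (3 genes), 2b (4 genes), 2c (10 genes), 2d (5 genes) and 2j (5 genes), with 1 gene each in 2e, 2f, 2g, 2r, 2s and 2u.

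Cytochromes P450 are haem enzymes of the endoplasmic reticulum that use electrons passed on by P450 reductase to oxidise small molecules. Family 2 is the largest P450 family in rodents and holds many of the liver's enzymes for drugs, steroids, arachidonic acid and solvents. Most of its genes lie in clusters of near-identical copies that arose by duplication, and several of them are known for different levels in male and female mouse liver.

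The samples were livers at embryonic day 14, called E14.5 here (3 arrays), at embryonic day 18, called E18.5 (3 arrays), at postnatal day 5, P5 (2 arrays, replicates 2 and 3), and at postnatal day 56, P56 (3 arrays). No sample carried a transgene or a treatment, and sex and strain were not given in the labels. The labels named the tissue as liver and the cell type as hepatoblasts, immature hepatocytes or hepatocytes by age, and the methods named both whole livers and isolated cells, so which of these each array held was not settled. Each sample was labelled with Cy5 and hybridised against one commercial adult mouse liver RNA labelled with Cy3, so a log2 ratio of 0 means the level of that adult reference. Dyes were not swapped, so a level against the reference is open to dye bias, while a difference between stages compares the same dye. The labels called the arrays biological replicates without saying how animals were assigned or pooled, and p-values measure the spread between these samples.

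Cell type markers moved with the stages. The mean log2 ratio of 10 mature hepatocyte markers ran from -3.72 to -3.54 at E14.5, from -1.31 to -1.17 at E18.5, from -0.41 to -0.28 at P5 and from -0.59 to 0.07 at P56. The mean of 10 erythroid markers lay between 3.11 and 3.26 at E14.5, between 3.24 and 3.43 at E18.5, between 2.41 and 2.97 at P5 and between -0.23 and 0.06 at P56. The labels of isolated hepatocyte lineage cells therefore stood beside strong erythroid signal until P5, and 10 of 10 erythroid markers were lower at P56 than at P5. Fewer hepatocytes and less RNA per hepatocyte cannot be told apart in such samples, and the part of the changing cell mixture in the results on Cyp2 genes was not tested.

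The family as a whole rose towards the adult level. From E14.5 to P56, 32 of 33 Cyp2 genes were higher and 0 lower by limma with Benjamini-Hochberg adjustment over 16704 genes, where 36.1% of all genes tested were higher and 34.8% lower. The median log2 fold change of the 33 genes was 2.41, with a range from -0.15 to 5.54, beside a median of 0.04 over all genes. The 31 other Cyp genes tested had a median of 2.31, with 27 higher and 2 lower. With each array centred on its median log ratio in place of loess, the median over all genes moved to -0.33 and 2450 genes were higher and 8234 lower, in place of 6033 and 5806. The 0 falls within the family stayed 0 at an unadjusted p under 0.05 by limma and by the methods' test, while median centring and the Cy5 channel alone each called 1 fall, that of Cyp2s1.

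The rise was not spread evenly over the intervals. Between E14.5 and E18.5, 20 of 33 Cyp2 genes rose and 0 fell (24.6% and 22.8% of all genes), with a median change of 1.14 log2 units, and 0 fell at an unadjusted p under 0.05 by limma or by the methods' test. Between E18.5 and P5, 9 rose and 3 fell (7.32% and 6.4% of all genes), with a median of 0.35. Between P5 and P56, 20 rose and 2 fell (20.9% and 24.7% of all genes), with a median of 0.77. Both intervals that involve P5 rest on 2 arrays of that stage: without P5 replicate 2, 16 genes rose and 0 fell from E18.5 to P5 with a median of 0.69, where 1850 of all 16684 genes tested rose and 1913 fell. From P5 to P56, 10 then rose and 1 fell with a median of 0.51, where 2071 of all genes rose and 2670 fell. Without P5 replicate 3 the median from E18.5 to P5 was 0.16 and 0 genes fell. Median centring left 7 rises from P5 to P56, while the median over all genes moved to -0.47. Of all genes 653 were then higher and 8855 lower, in place of 3483 and 4132. Scan as a block left 12 rises in that interval, where 2015 of all genes rose and 2657 fell.

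**Figure D1:**
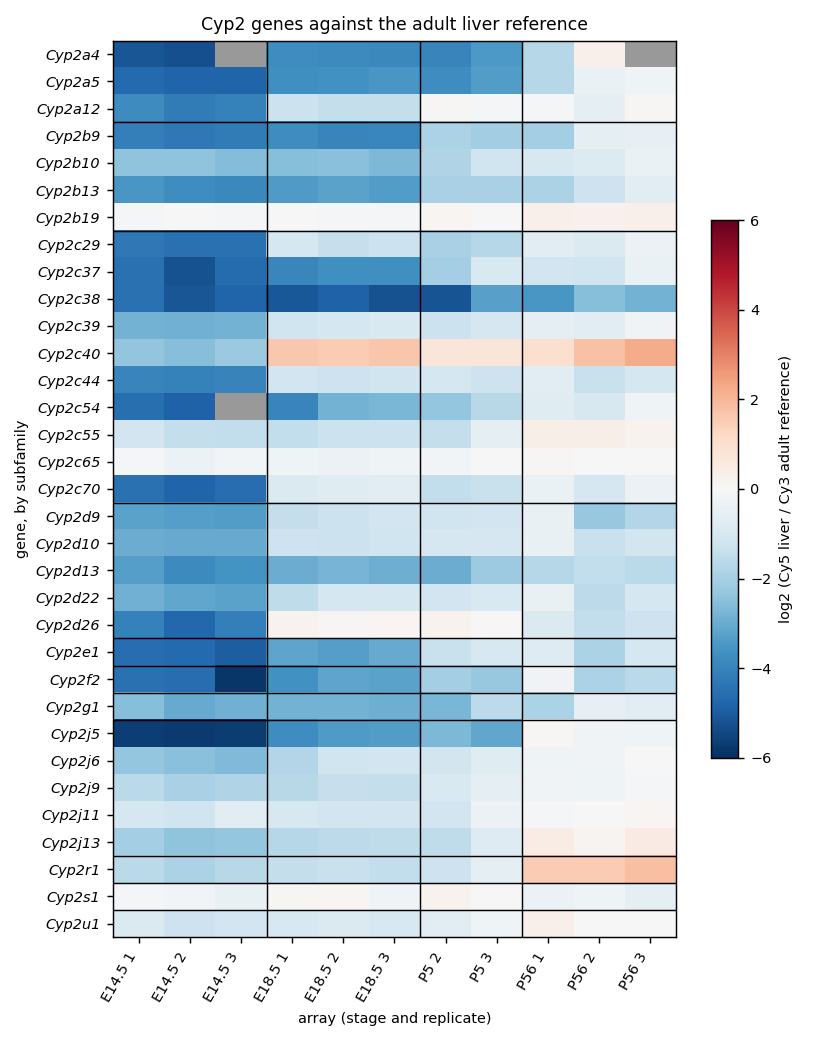
Log2 ratio of each of 33 Cyp2 genes (vertical axis, by subfamily) on each of the 11 arrays (horizontal axis, stage and replicate), with blue below and red above the adult reference and grey for a missing value. Most genes were below the reference at E14.5, while Cyp2b19, Cyp2c65 and Cyp2s1 stayed within 1 log2 unit of it on every array.

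Taking the 29 genes that changed by at least 1 log2 unit from E14.5 to P56, the largest single step lay between E14.5 and E18.5 for 13, between E18.5 and P5 for 6 and between P5 and P56 for 10. Subfamily members did not always share the step. It was the first for 4 of 5 genes in 2d and for 6 of 9 in 2c, the second for 3 of 3 in 2b, and the last for 2 of 3 in 2a. These counts rest on the brightest probe of each gene, are a description and carry no test. On the second probes of Cyp2b10 and Cyp2b13 the last step was the largest. The split also depends on single P5 arrays. Without P5 replicate 2 the middle step exceeded the last for Cyp2c38 (1.80 and 0.29) and Cyp2g1 (1.31 and 0.54). The same held for Cyp2d13 (0.73 and 0.57) and Cyp2u1 (0.69 and 0.37).

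**Figure D2:**
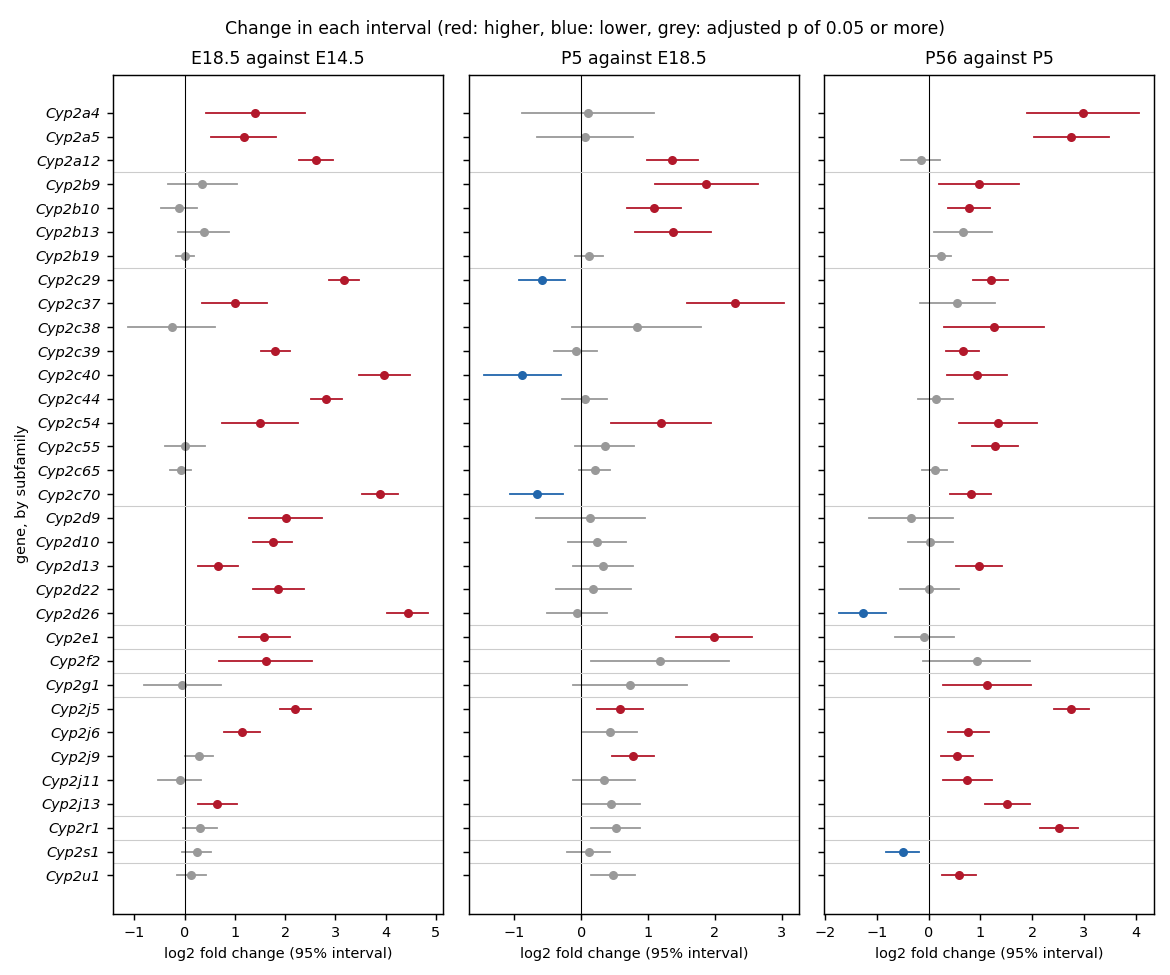
Log2 fold change with its 95% interval for each Cyp2 gene (vertical axis) in the 3 consecutive intervals, in red where higher, in blue where lower and in grey where the adjusted p was 0.05 or more. The 5 Cyp2d genes rose in the first interval, the Cyp2b genes other than Cyp2b19 in the second, and Cyp2a4, Cyp2a5, Cyp2j5 and Cyp2r1 had their largest step in the third.

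Many of these genes are near copies, and the printed probes show how little separates some of them. Cyp2a4 and Cyp2a5 encode steroid and coumarin hydroxylases. The Cyp2a4 probe and the second Cyp2a5 probe overlap in 38 bases with 35 identical (92.1%). The Cyp2a5 probe used for the measurements overlaps the Cyp2a4 probe in 20 bases, all identical (100%). The 30 bases shown are bases 23 to 52 of the Cyp2a4 probe at chr7:23212199-23212258 and bases 1 to 30 of the second Cyp2a5 probe at chr7:23212221-23212279, both on the plus strand of mouse build mm7, and capitals mark the bases that differ.
Cyp2a4: aggacacTTCgtagacttgcagaggatatt
Cyp2a5: aggacacAGAgtagacttgcagaggatatt
The array annotation places both probes at the same locus, so each may also read the transcript of the other gene. It lists transcripts of both genes for the Cyp2a4 probe. For the second Cyp2a5 probe it lists Cyp2a5 and an entry that was not matched, and none of Cyp2a4.

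In subfamily 2c, 1 probe each of Cyp2c40, Cyp2c54 and Cyp2c38 covers the same exon junction, and 30 of the 43 bases that all 3 cover are identical. The genomic spans of these 60-base probes on the minus strand of chromosome 19, which include the intron, are chr19:39680672-39696310 for Cyp2c40, chr19:39941403-39963984 for Cyp2c54 and chr19:39298557-39329867 for Cyp2c38 (mm7). Capitals mark positions within the common stretch at which the 3 are not all alike.
Cyp2c40: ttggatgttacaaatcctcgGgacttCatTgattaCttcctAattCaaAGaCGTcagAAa
Cyp2c54: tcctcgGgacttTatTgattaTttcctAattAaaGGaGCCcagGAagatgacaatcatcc
Cyp2c38: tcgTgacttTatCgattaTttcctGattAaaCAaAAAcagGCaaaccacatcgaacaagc
In spite of the shared stretch the 3 probes ran differently. From E14.5 to E18.5 the mean log2 ratio went from -2.54 to 1.25 on this Cyp2c40 probe and from -4.69 to -3.18 on the Cyp2c54 probe, while the Cyp2c38 probe was well above background on arrays of P56 only.

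The third pair is Cyp2j11, at chr4:95690233-95690292, and Cyp2j13, at chr4:95438221-95449204 (minus strand, mm7), which share 28 of 30 bases where the probes overlap, with the differing bases in capitals.
Cyp2j11: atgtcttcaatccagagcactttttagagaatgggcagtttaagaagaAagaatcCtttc
Cyp2j13: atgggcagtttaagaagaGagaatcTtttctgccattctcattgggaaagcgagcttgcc
Of the 33 probes used for the measurements, 6 list a transcript of another gene in the array annotation: those of Cyp2a4, Cyp2a5, Cyp2b9, Cyp2b13, Cyp2c40 and Cyp2d9. Of all 53 probes of the family 10 do, among them the second probes of Cyp2a4, Cyp2c37, Cyp2c40 and Cyp2d9. On these probes a value may hold signal of the copies, and cross-hybridisation was not tested.

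Subfamily 2a split into an early and a late course. Cyp2a12, a steroid hydroxylase, had log2 ratios of -3.76, -4.18 and -4.04 at E14.5, of -1.29, -1.41 and -1.44 at E18.5, of 0.09 and -0.12 at P5, and of -0.06, -0.52 and 0.06 at P56. It rose by 2.61 ± 0.15 (SE) to E18.5 (limma, adjusted p = 1.01e-07) and by 1.36 ± 0.17 to P5 (limma, adjusted p = 0.000472), which left it at the reference level from P5 on. Cyp2a5 had log2 ratios of -4.69, -4.80 and -4.82 at E14.5, of -3.67, -3.62 and -3.498 at E18.5, of -3.72 and -3.37 at P5, and of -1.72, -0.39 and -0.25 at P56. It stood at 8.57% of the reference at P5 and rose by 2.76 ± 0.33 to P56 (limma, adjusted p = 4.27e-05), after a change of 0.05 from E18.5 to P5. Its second probe, shown above in part, gave steps of 1.55, 0.06 and 3.54. Cyp2a4 ran close to it, with -5.13 and -5.29 at E14.5 (1 array without a value), -3.73, -3.83 and -3.85 at E18.5, -3.94 and -3.46 at P5, then -1.72 and 0.29 at P56 (1 array without a value). Its rise of 2.99 ± 0.48 from P5 to P56 (limma, adjusted p = 0.000751) rests on 2 arrays per stage that did not overlap. On its other probe, which also lists a transcript of Cyp2a5, that step was 1.62. The reference channel was saturated on 1 array for Cyp2a4 and on 3 arrays for Cyp2a5.

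Subfamily 2b had no change before birth that limma called over all arrays. From E14.5 to E18.5, 0 of 4 Cyp2b genes passed the test in either direction by limma, also at an unadjusted p under 0.05. After adjustment, 8795 of all 16704 genes were not called in that interval either. Without P56 replicate 1, Cyp2b9 and Cyp2b13 were called higher with the same changes of 0.35 and 0.38 (limma, adjusted p = 0.00974 and 0.0439). Cyp2b9, a testosterone hydroxylase known as predominant in female mice, had log2 ratios of -4.12, -4.30 and -4.21 at E14.5, of -3.74, -3.94 and -3.90 at E18.5, of -1.90 and -2.07 at P5, and of -2.04, -0.53 and -0.47 at P56. It rose by 1.87 ± 0.35 from E18.5 to P5 (limma, adjusted p = 0.00536), with no overlap between the stages. The further rise of 0.97 to P56 passed at an adjusted p of 0.0409 by limma, and it missed the threshold when any 1 array other than P56 replicate 1 was left out. The second, dimmer Cyp2b9 probe, which lists no transcript of another gene, gave smaller steps of 0.33, 1.18 and 0.37. Cyp2b10, the phenobarbital-inducible member, rose by 1.08 from E18.5 to P5 and by 0.78 from P5 to P56 (limma, adjusted p = 0.00319 and 0.00491). Without P5 replicate 2 the last step was 0.47 and was not called (limma, adjusted p = 0.0816). Cyp2b13 rose by 1.37 to P5 (limma, adjusted p = 0.00532). Cyp2b19, which is known from skin, lay between -0.12 and 0.30 on every array and changed by 0.36 over the whole course (limma, adjusted p = 0.0023). Its probe was dim, with a mean log2 intensity of 6.63 over both dyes, so its ratios are damped by the offset. Its other probe was well above background on 0 arrays.

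Subfamily 2c held the largest early rises together with Cyp2d26, and 3 genes that dipped after birth. Cyp2c40, an arachidonic acid hydroxylase, had log2 ratios of -2.35, -2.55 and -2.25 at E14.5, of 1.62, 1.51 and 1.65 at E18.5, of 0.70 and 0.71 at P5, and of 0.96, 1.74 and 2.23 at P56. It rose by 3.97 ± 0.24 to E18.5 (limma, adjusted p = 1.01e-07), from 19.2% to 301% of the adult reference. Its fall of -0.88 ± 0.26 to P5 passed at an adjusted p of 0.0459 by limma, without overlap between the stages, and its rise to P56 was 0.94 (limma, adjusted p = 0.0125). The fall missed the threshold when any 1 array other than P56 replicate 1 or 3 was left out, and the rise missed it without P5 replicate 2. The junction probe printed for it, which also lists a transcript of Cyp2c68, gave -0.84 and 1.23 for these last steps.

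Cyp2c70, which hydroxylates bile acids to muricholic acids in rodents, followed the same course. Its log2 ratios were -4.47, -4.79 and -4.58 at E14.5, -0.86, -0.70 and -0.62 at E18.5, -1.48 and -1.32 at P5, then -0.39, -1.01 and -0.37 at P56. It rose by 3.88 ± 0.16 (limma, adjusted p = 9.43e-09), fell by 0.67 ± 0.18 (limma, adjusted p = 0.032) and rose again by 0.81 (limma, adjusted p = 0.00355). Xist, the RNA of the inactive X chromosome, was well above background on both P5 arrays and on E18.5 replicate 1 only at E18.5, and with Xist as a term the fall was -0.496 and not called (limma, adjusted p = 0.114). Cyp2c29, a liver enzyme of drug and arachidonic acid metabolism, had -4.28, -4.47 and -4.49 at E14.5, -1.07, -1.38 and -1.28 at E18.5, -1.94 and -1.72 at P5, then -0.67, -0.87 and -0.35 at P56. It rose by 3.17 ± 0.14 (limma, adjusted p = 1.28e-08), fell by 0.59 ± 0.16 (limma, adjusted p = 0.0278) and rose by 1.20 (limma, adjusted p = 7.9e-05). The 3 falls at P5 were the only ones of the family in that interval, and 0 of them passed under 6 of the other settings tried, among them an offset of 16 and median centring, or without E18.5 replicate 3. Without E18.5 replicate 1 or replicate 2, 1 of them passed.

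The other Cyp2c genes had no called fall in any interval. Cyp2c37, an enzyme of arachidonic acid metabolism, had -4.46, -5.23 and -4.62 at E14.5, -3.93, -3.70 and -3.70 at E18.5, -2.04 and -0.90 at P5, then -1.14, -1.22 and -0.40 at P56. Its rise of 2.31 ± 0.33 from E18.5 to P5 was the largest of the family in that interval (limma, adjusted p = 0.00107). The P5 arrays differed by 1.15 for it, and its second probe, which also lists a transcript of Cyp2c50, gave 1.70 for that step. Cyp2c54 rose in each of the 3 intervals, by 1.502, 1.20 and 1.34, and its middle step (limma, adjusted p = 0.0403) became 0.82 without E18.5 replicate 1, which read -3.94 beside -2.85 and -2.77 (limma, adjusted p = 0.0738). Cyp2c39 and Cyp2c44, which RefSeq now calls Cyp2c23, rose by 1.80 and 2.82 to E18.5 (limma, adjusted p = 5.61e-07 and 2.51e-08). Cyp2c38 read -5.20 and -3.26 at P5 and -3.51, -2.57 and -2.82 at P56, where it stood at 12.8% of the reference. Its rise of 0.83 from E18.5 to P5 was not called and that of 1.26 from P5 to P56 was (limma, adjusted p = 0.24 and 0.0355), but without P5 replicate 2 the first was 1.80 and called and the second 0.29 and not called (limma, adjusted p = 0.00293 and 0.557), so its timing turned on 1 array. Cyp2c55 was well above background on 0 arrays of E14.5 and was at least 3.14-fold higher at P56 by the ratio to the reference, or 3.27-fold by the Cy5 signal alone. The level at E14.5 is an upper limit, so such folds are lower bounds. Cyp2c65, also dim, changed by 0.23 from E14.5 to P56 (limma, adjusted p = 0.0451), a call that was lost without any 1 array of E18.5 or P56 and without E14.5 replicate 2 or 3.

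**Figure D3:**
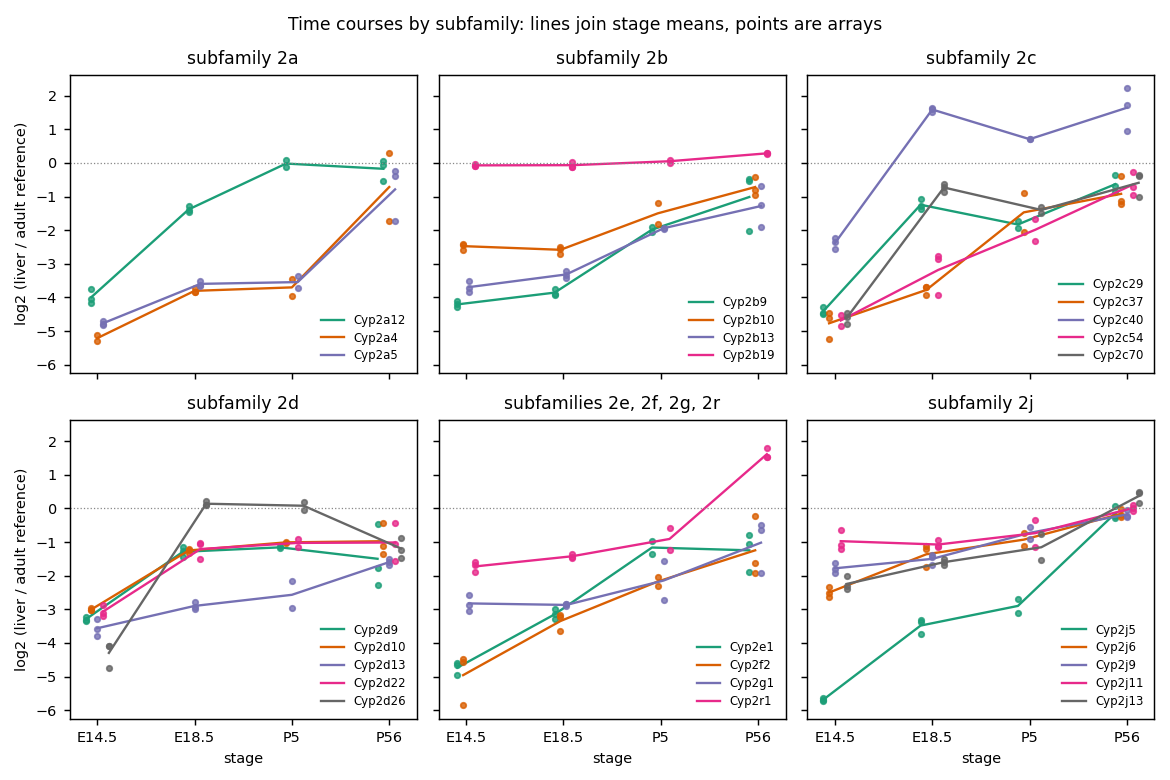
Log2 ratio against the adult reference (vertical axis) at the 4 stages (horizontal axis) for genes of the subfamilies named above each panel, with points for arrays and lines joining stage means. Cyp2c29, Cyp2c40 and Cyp2c70 dipped at P5 between higher levels at E18.5 and P56, the Cyp2d genes rose between E14.5 and E18.5, and Cyp2j5 and Cyp2r1 had their largest step between P5 and P56.

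Subfamily 2d rose before birth. All 5 Cyp2d genes rose from E14.5 to E18.5, where 24.6% of all genes rose and 22.8% fell. From E18.5 to P5, 0 of 5 passed in either direction by limma, also at an unadjusted p under 0.05. After adjustment, 7.32% of all genes rose and 6.4% fell in that interval. From P5 to P56, 1 of 5 rose and 1 fell, near the 20.9% and 24.7% of all genes. Cyp2d26 had log2 ratios of -4.08, -4.73 and -4.08 at E14.5, of 0.22, 0.09 and 0.11 at E18.5, of 0.21 and -0.04 at P5, and of -0.88, -1.46 and -1.22 at P56. Its rise of 4.44 ± 0.19 to E18.5 was the largest single step of the family (limma, adjusted p = 8.88e-09), from 5.09% to 110% of the reference. It then fell by 1.27 ± 0.21 from P5 to P56 (limma, adjusted p = 0.000406), with the adult arrays all below the others after E14.5. Cyp2d9, a testosterone hydroxylase known for higher levels in males, had -3.23, -3.32 and -3.35 at E14.5, -1.45, -1.28 and -1.14 at E18.5, -1.18 and -1.13 at P5, then -0.45, -2.28 and -1.76 at P56. It rose by 2.01 ± 0.33 to E18.5 (limma, adjusted p = 0.000402), and its spread at P56 was the second largest of the family. Cyp2d10 and Cyp2d22 rose by 1.75 and 1.86 to E18.5 and stood near 50% of the reference at P5 and P56. Other probes had more of the rise in the later intervals, with steps of 1.18, 0.74 and 0.84 on the second Cyp2d10 probe and of 0.33, 0.76 and 0.15 on another, dimmer Cyp2d22 probe. Cyp2d13 rose by 0.66 and by 0.97 in the first and last intervals (limma, adjusted p = 0.0108 and 0.00241), so its largest step came last. Without P5 replicate 2 the last step of Cyp2d13 was 0.57, and its middle step of 0.73 was called (limma, adjusted p = 0.0145).

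The single genes of 2e, 2f and 2g took different courses. Cyp2e1, which oxidises ethanol and acetaminophen, had log2 ratios of -4.59, -4.67 and -4.95 at E14.5, of -3.14, -3.30 and -3.002 at E18.5, of -1.36 and -0.97 at P5, and of -0.79, -1.88 and -1.06 at P56. It rose by 1.59 ± 0.23 and then by 1.99 ± 0.26 (limma, adjusted p = 0.00016 and 0.000574), and its P5 and P56 arrays overlapped. Cyp2f2, a naphthalene-oxidising enzyme of lung and liver, had -4.47, -4.56 and -5.85 at E14.5, -3.65, -3.17 and -3.22 at E18.5, -2.05 and -2.29 at P5, then -0.21, -1.91 and -1.61 at P56. It rose by 1.61 ± 0.42 to E18.5 (limma, adjusted p = 0.00776). That call was lost with scan as a block, where the rise was 1.31, in the deposited table and with median centring (limma, adjusted p = 0.144, 0.0612 and 0.0509). The later steps of 1.18 and 0.93 were not called. From E14.5 to P56 it rose by 3.71 ± 0.42 (limma, adjusted p = 7.47e-06). Cyp2g1, known from the olfactory mucosa, had -2.56, -3.04 and -2.87 at E14.5, -2.85, -2.85 and -2.91 at E18.5, -2.72 and -1.56 at P5, then -1.92, -0.49 and -0.64 at P56. Its rise of 1.13 from P5 to P56 (limma, adjusted p = 0.0341) came with overlapping arrays, and it was 0.54 and not called without P5 replicate 2 or with scan as a block (limma, adjusted p = 0.383 and 0.417).

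Subfamily 2j rose over the whole course. All 5 Cyp2j genes were higher at P56 than at P5 (20.9% of all genes), and 3 of 5 had already risen from E14.5 to E18.5 (24.6% of all genes). The largest step was the last for Cyp2j5, Cyp2j11 and Cyp2j13, the first for Cyp2j6 and the middle one for Cyp2j9. Cyp2j5, an arachidonic acid epoxygenase of liver and kidney, had log2 ratios of -5.64, -5.73 and -5.70 at E14.5, of -3.73, -3.39 and -3.33 at E18.5, of -2.69 and -3.10 at P5, and of 0.06, -0.22 and -0.27 at P56. It rose by 5.54 ± 0.14 over the whole course, the largest total of the family (limma, adjusted p = 5.69e-11). Of this, 2.75 ± 0.16 fell in the last interval (limma, adjusted p = 1.18e-07), so that it stood at 13.4% of the reference at P5 and 90.5% at P56. Cyp2j13 rose by 1.52 from P5 to P56 (limma, adjusted p = 8.43e-05) and Cyp2j11, whose probe shares 28 of 30 bases with it, by 0.75 (limma, adjusted p = 0.0141). The other probes of Cyp2j11 and Cyp2j13 were well above background on 0 arrays, so both rises rest on the overlapping probes. Without P5 replicate 2 the last steps of Cyp2j11, Cyp2j9 and Cyp2j6 were 0.35, 0.37 and 0.58 and were not called (limma, adjusted p = 0.227, 0.111 and 0.0698). Cyp2j11 was well above background on 0 arrays of E14.5 and was at least 1.98-fold higher at P56 by the ratio to the reference, or 2.28-fold by Cy5 alone. Cyp2j6 and Cyp2j9 ended at 89.6% and 88.4% of the reference.

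Cyp2r1, a vitamin D 25-hydroxylase, ended above the adult reference. Its log2 ratios were -1.60, -1.89 and -1.69 at E14.5, -1.45, -1.35 and -1.46 at E18.5, -1.22 and -0.59 at P5, then 1.52, 1.52 and 1.80 at P56. It rose by 2.52 ± 0.17 from P5 to P56 (limma, adjusted p = 4.61e-07) and then stood at 306% of the adult reference, beside 312% for Cyp2c40, with no overlap between P56 and any earlier stage. Cyp2s1, a P450 of epithelia and skin, had -0.10, -0.17 and -0.45 at E14.5, 0.08, 0.13 and -0.21 at E18.5, 0.20 and 0.02 at P5, then -0.36, -0.26 and -0.55 at P56. It fell by 0.50 ± 0.15 from P5 to P56 (limma, adjusted p = 0.0145) and was the 1 member that was not higher at P56 than at E14.5, with -0.15 here and 0.68 in the deposited table (limma, adjusted p = 0.0307). Without P5 replicate 2 its fall from P5 was -0.41 and not called (limma, adjusted p = 0.119). Cyp2u1, a fatty acid hydroxylase, had -0.87, -1.22 and -1.16 at E14.5, -0.97, -0.89 and -0.97 at E18.5, -0.68 and -0.26 at P5, then 0.30, 0.03 and 0.01 at P56. Its rise of 0.58 from P5 to P56 (limma, adjusted p = 0.00791) became -0.003 with median centring, and 0.37 without P5 replicate 2 (limma, adjusted p = 0.12).

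The 3 adult arrays disagreed on part of the family. Xist was well above background on P56 replicates 2 and 3 and not on replicate 1, while the Y-linked Ddx3y was well above background on replicate 1 only. Over all stages Xist was well above background on 6 arrays and Ddx3y on the other 5. P56 replicate 1 lay at least 1 log2 unit outside the other P56 arrays with a value for 6 of 33 Cyp2 genes (18.2%), beside 0.689% of all genes tested. Cyp2a4, Cyp2a5, Cyp2b9 and Cyp2g1 were lower on it, by -2.01, -1.40, -1.54 and -1.35 against the mean of the other arrays. Cyp2a4 had no value on replicate 3 and was set against replicate 2 only. Cyp2d9 and Cyp2f2 were higher on it, by 1.57 and 1.55. The mean of 7 genes known for higher levels in male liver was 1.43, -0.0049 and 0.29 on replicates 1, 2 and 3. One gene of that list, C4a, read lowest on replicate 1, at -0.74, -0.30 and -0.69. With 1 and 2 arrays on the sides the difference allows no test, and the part of sex in it was not tested.

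**Figure D4:**
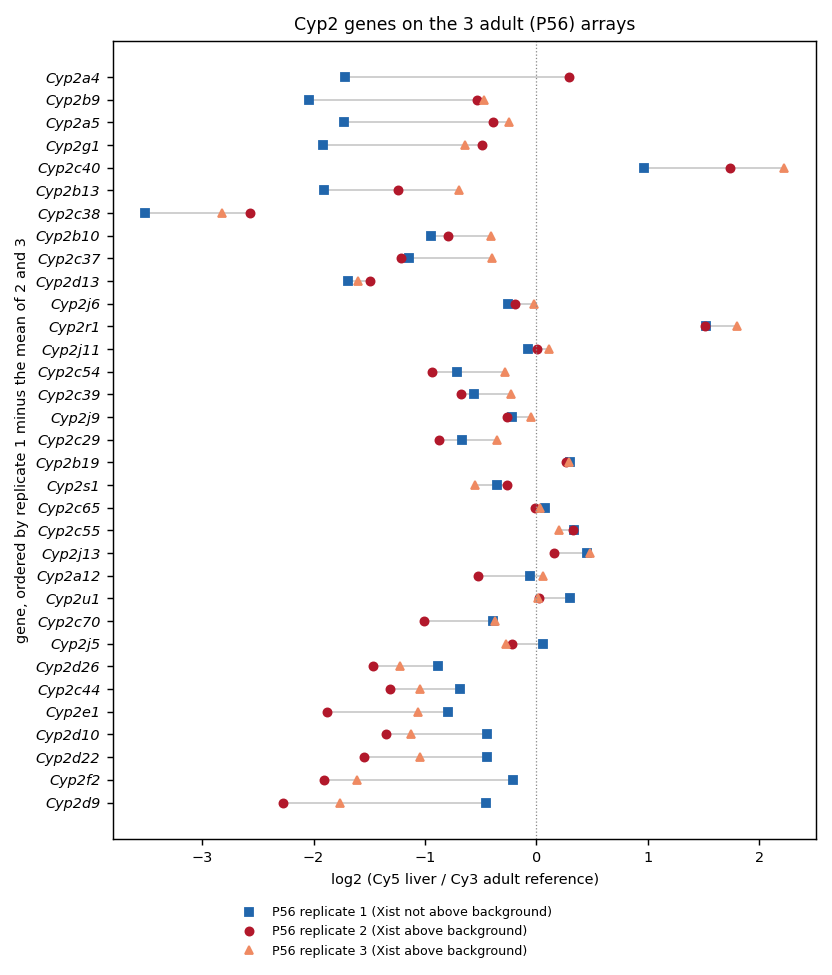
Log2 ratio against the adult reference (horizontal axis) on each of the 3 P56 arrays for 33 Cyp2 genes (vertical axis), ordered by replicate 1 minus the mean of replicates 2 and 3 (Cyp2a4 has no value on replicate 3). Replicate 1 lies to the left at the top, with Cyp2a4 and Cyp2b9, and to the right at the bottom, with Cyp2d9 and Cyp2f2.

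Without P56 replicate 1, the rise of Cyp2b9 from P5 to P56 was 1.48 (limma, adjusted p = 2.33e-06) and that of Cyp2b13 0.98 (limma, adjusted p = 0.000818), which was 0.66 and not called with all arrays. Cyp2d9 was then called lower at P56 than at P5, at -0.86 (limma, adjusted p = 0.00114). Cyp2a5 rose by 3.23 and Cyp2d26 fell by 1.43. The count of Cyp2 genes that rose from P5 to P56 was 21 without that array and 20 with it.

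P5 replicate 3 read higher than P5 replicate 2 for 24 of 33 Cyp2 genes, and by at least 1 log2 unit for Cyp2c37, Cyp2c38 and Cyp2g1 (9.09%). Of all genes tested, 150 lay at least 1 log2 unit above and 233 at least that far below on it (2.3% together). It was scanned together with the 3 P56 arrays, and P5 replicate 2 was scanned alone. Within that shared scan the median log2 fold change of the Cyp2 genes from P5 to P56 was 0.51, with 0.29 for Cyp2c38 and 0.54 for Cyp2g1. Within the scan that held E14.5 and 1 array of E18.5, the median from E14.5 to E18.5 was 0.75. Each of these sets a stage against 1 array and carries no test. No scan held both E18.5 and P5, so scan and stage cannot be told apart in that interval.

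Genes of enzymes that serve the P450s rose before birth and again after P5. Of 8 redox partner genes, 6 rose from E14.5 to E18.5, with a median of 0.97, 3 rose from E18.5 to P5, with a median of 0.18, and 5 rose from P5 to P56, with a median of 0.68, beside 24.6%, 7.32% and 20.9% of all genes. Por, the reductase that passes electrons to all microsomal P450s, had log2 ratios of -2.77, -2.90 and -2.88 at E14.5, of -0.67, -0.32 and -0.38 at E18.5, of -0.23 and -0.13 at P5, and of -0.07, -0.41 and -0.03 at P56. It rose by 2.39 ± 0.12 to E18.5 (limma, adjusted p = 3.9e-08) and changed by 0.28 and 0.01 afterwards. Alas1, the first enzyme of haem synthesis, rose by 1.21 to E18.5 and by 1.70 from P5 to P56 (limma, adjusted p = 0.000583 and 0.000139).

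Of 31 regulators of P450 genes, 23 (74.2%) rose and 0 fell from E14.5 to E18.5, with a median of 0.97, where 24.6% of all genes rose and 22.8% fell. In the later intervals the shares lay near or below those over all genes. From E18.5 to P5, 3 (9.68%) rose and 0 fell, beside 7.32% and 6.4% of all genes, and from P5 to P56, 6 (19.4%) rose and 4 (12.9%) fell, beside 20.9% and 24.7%. Nr1i3 encodes CAR, a xenobiotic receptor that drives Cyp2b10, and had -2.41, -2.56 and -2.67 at E14.5, -1.75, -1.61 and -1.46 at E18.5, -0.89 and -0.56 at P5, then -0.58, -0.28 and 0.01 at P56. It rose by 0.94 to E18.5 and by 0.88 to P5 (limma, adjusted p = 0.000344 and 0.00618). Nr1i2, which encodes the xenobiotic receptor PXR, rose by 1.53 to E18.5 (limma, adjusted p = 2.62e-05) and by 0.40 to P5, which was not called. Rxra, the partner of both receptors, rose by 1.42 to E18.5 (limma, adjusted p = 6.59e-07) and changed by 0.12 and -0.09 in the later intervals. Hnf4a, a main hepatocyte factor, rose by 1.47 to E18.5 and by 0.44 from P5 to P56 (limma, adjusted p = 7.86e-07 and 0.0129).

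Promoter sequence was read for the 27 of 33 genes matched by symbol in the table of RefSeq promoters used here (GRCm38.p6, 250 bases before to 50 after the start, both strands). The letters CAAAGTC, a core of the HNF4 site, occurred in 10 of 27 Cyp2 promoters (37%) and in 5% of all 27025. TATAAA, the TATA box, occurred in 55.6% and 15.7%, AGGTCA, a nuclear receptor repeat unit, in 37% and 18.1%, and GTTAAT, a core of the HNF1 site, in 14.8% and 8.24%. Near copies share promoter letters as well, so the genes do not count separately, and a match is a description of these letters only. The stretches around CAAAGTC, in capitals, are shown for genes of the late, neonatal and fetal courses. They lie at chr7:26307117-26307163 (plus strand) for Cyp2a4, chr7:26835263-26835309 (plus) for Cyp2a5, chr7:26173213-26173259 (plus) for Cyp2b9, chr19:39286956-39287002 (plus) for Cyp2c29, chr19:39812833-39812879 (minus) for Cyp2c40 and chr19:40187324-40187370 (minus) for Cyp2c70.
Cyp2a4: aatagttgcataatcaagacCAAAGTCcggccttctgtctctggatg
Cyp2a5: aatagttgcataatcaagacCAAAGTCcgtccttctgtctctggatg
Cyp2b9: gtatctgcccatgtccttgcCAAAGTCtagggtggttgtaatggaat
Cyp2c29: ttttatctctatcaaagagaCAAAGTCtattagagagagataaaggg
Cyp2c40: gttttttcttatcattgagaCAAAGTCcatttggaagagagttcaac
Cyp2c70: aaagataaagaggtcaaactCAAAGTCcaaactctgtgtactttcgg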

How the data were processed

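RNA of 11 mouse liver samples at 4 stages was hybridised to 4x44k arrays. The deposited scanner files hold intensities of both dyes, read by the authors' scanner software (Feature Extraction 9.5.1.1, probe coordinates on mm7) and not yet normalized between arrays. The deposited series table holds log2 ratios per gene that the authors made with limma, and it served as an alternative with 0 unused sample columns. Spot intensities were background-corrected here by normexp (offset 50) and loess-normalized within arrays (R 4.3.3, limma 3.58.1), leaving out control spots and between 177 and 356 spots with outlier calls per array. Each array held 43379 spots that were not controls, of which 16790 to 25718 were well above background in Cy5. A probe was kept if well above background in Cy5 on every array of at least 1 stage and missing on at most 1 array per stage, and a gene was measured by its brightest such probe. One limma fit over 11 arrays gave all comparisons, with Benjamini-Hochberg adjustment over 16704 genes and a threshold of 0.05. Fold changes are on the log2 scale and are damped for dim probes by the offset. The number of arrays limits the precision. The fit was tested on simulated data. Members, lists and the rule for named genes (brightest of each subfamily, 3 largest rises and falls per interval, 3 largest ranges at P56) were chosen with earlier results of these data known. Gene names follow the array, and 29 of 33 genes matched RefSeq by accession. Same-numbered samples deviated together (r over 0.1) in 1 of 15 pairs, so numbers were not taken as pairs. Alternatives covered background, normalization, dim probes, missing values, probe choice, scan, replicate block, left-out arrays, the deposited table and the methods' test.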

Additional observations from a re-analysis of the deposited data

How the results depend on the processing

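The rises from E14.5 to E18.5 and from E14.5 to P56 kept counts within 1.5 times of 20 and 32 under every alternative. From E18.5 to P5, 9 rises became 3 in the deposited table and 0 by the methods' test after Benjamini-Hochberg adjustment. The 3 falls became 0 with the scanner's processed signals, with an offset of 16, with median centring, in the deposited table, by the methods' test after adjustment and with at least 2-fold asked for, and 1 in Cy5 alone. From P5 to P56, 20 rises became 7 with median centring, 13 in the deposited table, 12 with scan as a block, 1 by the methods' test after adjustment, 10 by that test unadjusted and 10 with at least 2-fold. The 2 falls became 1 with scan as a block, 0 by the methods' test after adjustment and 1 with at least 2-fold. From E14.5 to P56, 0 falls became 1 with median centring and 1 in Cy5 alone. The causes were not tested. With scan as a block, P5 against E18.5 and P56 against E14.5 could not be fitted.

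The median from E14.5 to E18.5 (1.14) was 1.70 with processed signals, 1.40 with an offset of 16, 0.93 with median centring, 0.98 in Cy5 alone, 1.41 for genes above background on all arrays, 0.83 for genes with every value, 0.87 over all probes, 1.36 in the deposited table and 0.75 with scan as a block. From E18.5 to P5 (0.35) it was 0.51 with an offset of 16, 0.21 in Cy5 alone and 0.49 with Xist as a term, an alternative chosen after seeing the data. From P5 to P56 (0.77) it was 0.91 without background correction, 0.93 with processed signals, 0.079 with median centring, 1.04 in the deposited table and 0.51 with scan as a block. From E14.5 to P56 (2.41) it was 2.64 without background correction, 3.51 with processed signals, 2.98 with an offset of 16, 1.79 with median centring, 2.30 in Cy5 alone, 3.01 for genes above background on all arrays and 3.37 in the deposited table.

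Leaving out 1 array at a time gave 17 to 22 rises and 0 to 0 falls from E14.5 to E18.5 (median 1.02 to 1.21), 7 to 16 and 0 to 3 from E18.5 to P5 (0.16 to 0.69), 10 to 21 and 1 to 3 from P5 to P56 (0.51 to 0.89), and 31 to 32 and 0 to 0 from E14.5 to P56 (2.28 to 2.57). The low count from P5 to P56 was without P5 replicate 2, and its falls were 1 without P5 replicate 2 or P56 replicate 3. Replicate numbers as a block, which the data did not bear out as pairs, gave 20, 8, 20 and 32 rises, 0, 3, 2 and 0 falls and medians of 1.14, 0.38, 0.76 and 2.41 in the order E18.5, P5, P56 against the stage before and P56 against E14.5. Among the named genes, under settings that left out no array, 952 of 1052 values kept their direction and side of the threshold. Of the rest, 79 missed it, 19 newly passed, and 2 turned: Cyp2s1 from E14.5 to P56 (0.68 in the deposited table) and Cyp2u1 from P5 to P56 (-0.003 with median centring). With 1 array left out, 649 of 704 values kept both, 45 missed the threshold and 10 newly passed. Genes below background, as Cyp2c55, Cyp2c65 and Cyp2j11 at E14.5, have only a bound there.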

Other observations

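Sult2a2, a sulfotransferase known from female liver, was above the adult reference on both P5 arrays, with log2 ratios of 3.03 and 3.53, and read -3.31, 1.86 and 2.40 on the P56 arrays in order of replicate. Sult3a1 read -2.34, 2.84 and 3.39 at P56. Hsd3b5, a male-predominant steroid dehydrogenase, read 2.53, 0.36 and 0.83 there, and Elovl3, a fatty acid elongase, 2.69, 0.29 and 0.61. None of these genes is a P450 of family 2.

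Hmox1, which breaks down haem, rose by 0.83 from E14.5 to E18.5 (limma, adjusted p = 0.000387) and fell by 2.48 from P5 to P56 (limma, adjusted p = 2.2e-07). Alas2, the erythroid enzyme of haem synthesis, fell by 2.71 in the last interval (limma, adjusted p = 6.97e-05), while Alas1 rose. Nr1h4, which encodes the bile acid receptor FXR, had mean log2 ratios of -3.51, -1.16, -1.11 and 0.14 at the 4 stages in order. Cebpa, a hepatocyte factor, had -2.79, -0.48, -0.90 and -0.83.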
